A study of Mus musculus with 27 samples.

Results

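Hox genes encode homeodomain transcription factors that lie in 4 chromosomal clusters and give cells their position along the head to tail axis. The genes were chosen by name alone, as every row of the 3 gene tables whose symbol is Hox followed by a, b, c or d and a number from 1 to 13. That rule found 39 genes among 55536 rows of the embryonic pancreas table, 39 among 26487 rows of the islet table and 38 among 39017 rows of the neural progenitor table, which has no row for Hoxd4.

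The study profiled RNA in mouse tissue and cells in which Nkx2.2, a homeodomain factor of the ventral spinal cord and of the endocrine pancreas, was mutated in its SD domain, deleted or induced. Neural libraries came from motor neuron progenitors that were differentiated from embryonic stem cells and collected on day 4. The pMN group (n = 3) was the iNkx2.2 line left untreated. The iNkx2.2 group (n = 3) was the same line, which carries a FLAG-tagged wild-type Nkx2.2 under a doxycycline-inducible promoter, given doxycycline at 1 µg/ml for about 16 h. The iSDmut group (n = 2) was a separate line with the tagged SD-domain mutant, given the same treatment. No uninduced iSDmut culture is among the samples, so line, transgene and doxycycline cannot be told apart in iSDmut against pMN. No culture without a transgene was given doxycycline either, so Nkx2.2 and the drug cannot be told apart in iNkx2.2 against pMN. In the pancreas, whole organs at E15.5 came from controls (n = 3) and Nkx2.2SDmut embryos (n = 4). Islets came at 8 weeks from controls (n = 2) and beta-cell-specific SD mutants (betaSDmut, n = 3), and at 4 weeks from controls (n = 2) and beta-cell-specific Nkx2.2 knockouts (betaKO, n = 2). The labels used here do not name the Cre driver or say whether tissue was pooled. Nkx2.2 binding was mapped by ChIP-seq in 2 replicates of MIN6 cells, a mouse beta-cell line. Nothing in the labels says that libraries of a group came from separate cultures or animals, so the p-values measure only the spread between these libraries.

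Within a cluster the genes are numbered from the 3′ end, and genes with the same number in different clusters are paralogs. Low-numbered (anterior) genes are switched on first and farthest toward the head, in the hindbrain and neck, and high-numbered (posterior) genes later and farther toward the tail. In the spinal cord this code sets which motor neuron columns and pools form at each level. Retinoic acid, Fgf, Gdf11 and Cdx signals set it up, and Pbx, Meis and Pknox proteins bind DNA together with Hox proteins. In the pancreas, Hox expression is known mainly from the mesenchyme around the epithelium.

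The clusters, on mm10 (GRCm38), were HoxA at chr6:52155590-52260880 with 11 genes, HoxB at chr11:96194316-96368256 with 10, HoxC at chr15:102921103-103036852 with 9 and HoxD at chr2:74668310-74765142 with 9. Promoter sequences for 22 of the genes were taken from a RefSeq table for GRCm38.p6, and 3 are shown because the results turn on their genes or show where the motifs fall. Hoxd3 fell on Nkx2.2 induction, Hoxb8 was among the highest genes per length in the progenitors, and Hoxb4 holds the core letters of an NK2-class site. Each run is the 250 bases before the RefSeq start, 5′ to 3′ on the + strand, at chr2:74711743-74711992 for Hoxd3, chr11:96281655-96281904 for Hoxb8 and chr11:96318017-96318266 for Hoxb4. Capitals mark a match, on either strand, to AGGTCA (the letters that retinoic acid receptors bind), TGATNNAT (a Pbx-Hox site) or TNAAGTG (the NK2 core).
Hoxd3: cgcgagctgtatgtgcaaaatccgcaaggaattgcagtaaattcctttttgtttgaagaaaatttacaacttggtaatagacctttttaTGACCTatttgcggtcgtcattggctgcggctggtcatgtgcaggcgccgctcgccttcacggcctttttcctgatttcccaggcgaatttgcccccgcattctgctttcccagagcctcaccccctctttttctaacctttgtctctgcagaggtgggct
Hoxb8: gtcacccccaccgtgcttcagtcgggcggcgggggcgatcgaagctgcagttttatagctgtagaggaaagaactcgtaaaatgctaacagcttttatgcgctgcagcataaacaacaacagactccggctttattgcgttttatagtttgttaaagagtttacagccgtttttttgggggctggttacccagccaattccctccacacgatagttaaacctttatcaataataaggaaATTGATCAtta
Hoxb4: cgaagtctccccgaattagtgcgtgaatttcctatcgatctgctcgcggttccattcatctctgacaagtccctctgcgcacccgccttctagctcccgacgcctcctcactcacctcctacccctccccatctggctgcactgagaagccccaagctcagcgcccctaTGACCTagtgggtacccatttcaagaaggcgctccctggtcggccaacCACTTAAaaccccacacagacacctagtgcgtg

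The capitals in Hoxd3 and the first capitals in Hoxb4 are the retinoic acid receptor letters read on the other strand, with their first base 161 and 81 bases before the start. The capitals in Hoxb8 are the Pbx-Hox letters, 11 bases before the start, and the second capitals in Hoxb4 are the NK2 core on the other strand, 33 bases before it. Over all 32851 promoters of the table, windows of this length held the NK2 core in 10.1%, the Pbx-Hox letters in 7.68% and the retinoic acid receptor letters in 14.0%. Of the 24 Hox entries, 3 held the NK2 core (Hoxb1, Hoxb4 and Hoxd11), 4 the Pbx-Hox letters (Hoxa2, Hoxb1, Hoxb8 and Hoxd11) and 6 the retinoic acid receptor letters (Hoxb4, Hoxc4, Hoxd10, Hoxd3, Hoxd4 and Hoxd8). A match describes the letters of the window and is no evidence of binding.

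Library totals were 38447596 to 41840638 counts in the embryonic pancreas, 12398041 to 32385406 in islets and 17757991 to 46840701 in progenitors. Levels below are CPM, library-scaled counts after TMM normalization, for comparisons of 1 gene between libraries, and values per kilobase (the authors' FPKM, or CPM per kb of exon where no FPKM were used) for comparisons between genes. Nkx2-2 itself rose on induction by 5.25 in iNkx2.2 and 4.72 in iSDmut on the log2 scale, from 9.25 ± 3.36 CPM to 355 ± 20.1 CPM (n = 3 each, SD) and 246 ± 2.40 CPM (n = 2) (edgeR's quasi-likelihood test, Benjamini-Hochberg adjusted p = 1.49e-05 and 4.01e-05). Its log2 fold change was -0.10 in the embryonic mutants, -0.10 in betaSDmut and -0.18 in betaKO, none of them past the adjusted threshold of 0.05. The libraries labelled betaKO held 78.7 ± 20.02 CPM of Nkx2-2 against 89.4 ± 18.6 CPM in their controls (n = 2 each, SD). The gene count thus shows no clear loss of Nkx2-2 under that label, and it cannot decide on the deletion. Islets also hold cells other than beta cells, with the alpha-cell gene Gcg at 21720 to 62133 CPM over the islet libraries. Whether the reads come from such cells or lie outside the deleted part was not tested. The strand used in counting is not given in the sources used here, so overlapping genes carry an uncertainty. On the other strand, Hoxb3os covers 52.9% of the exon bases of Hoxb3 and 27.3% of those of Hoxb2, and Hoxa11os 35.0% of those of Hoxa11. On the same strand, 62.3% of the exon bases of Hoxd3 are shared with Hoxd4 and Gm28230, of which 388 lie in Hoxd4 exons.

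The 3 tissues differed in how much of the Hox code they held. Summed over all Hox genes, the progenitors held 1286 to 2191 CPM, the embryonic pancreas 105 to 263 and islets 4.57 to 10.3. At least 10 counts in every library were found for 20 genes in the progenitors and 20 in the embryonic pancreas, against 0 in islets. Genes listed at 0 in every library were Hoxc11, Hoxc12, Hoxd10 and Hoxd12 in the progenitors, Hoxa13 and Hoxb13 in the embryonic pancreas, and Hoxb1, Hoxc12 and Hoxd1 in islets. These sums set tables side by side that were made and normalised separately. In bulk RNA, fewer cells of a type and less RNA per cell cannot be told apart.

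**Figure D1:**
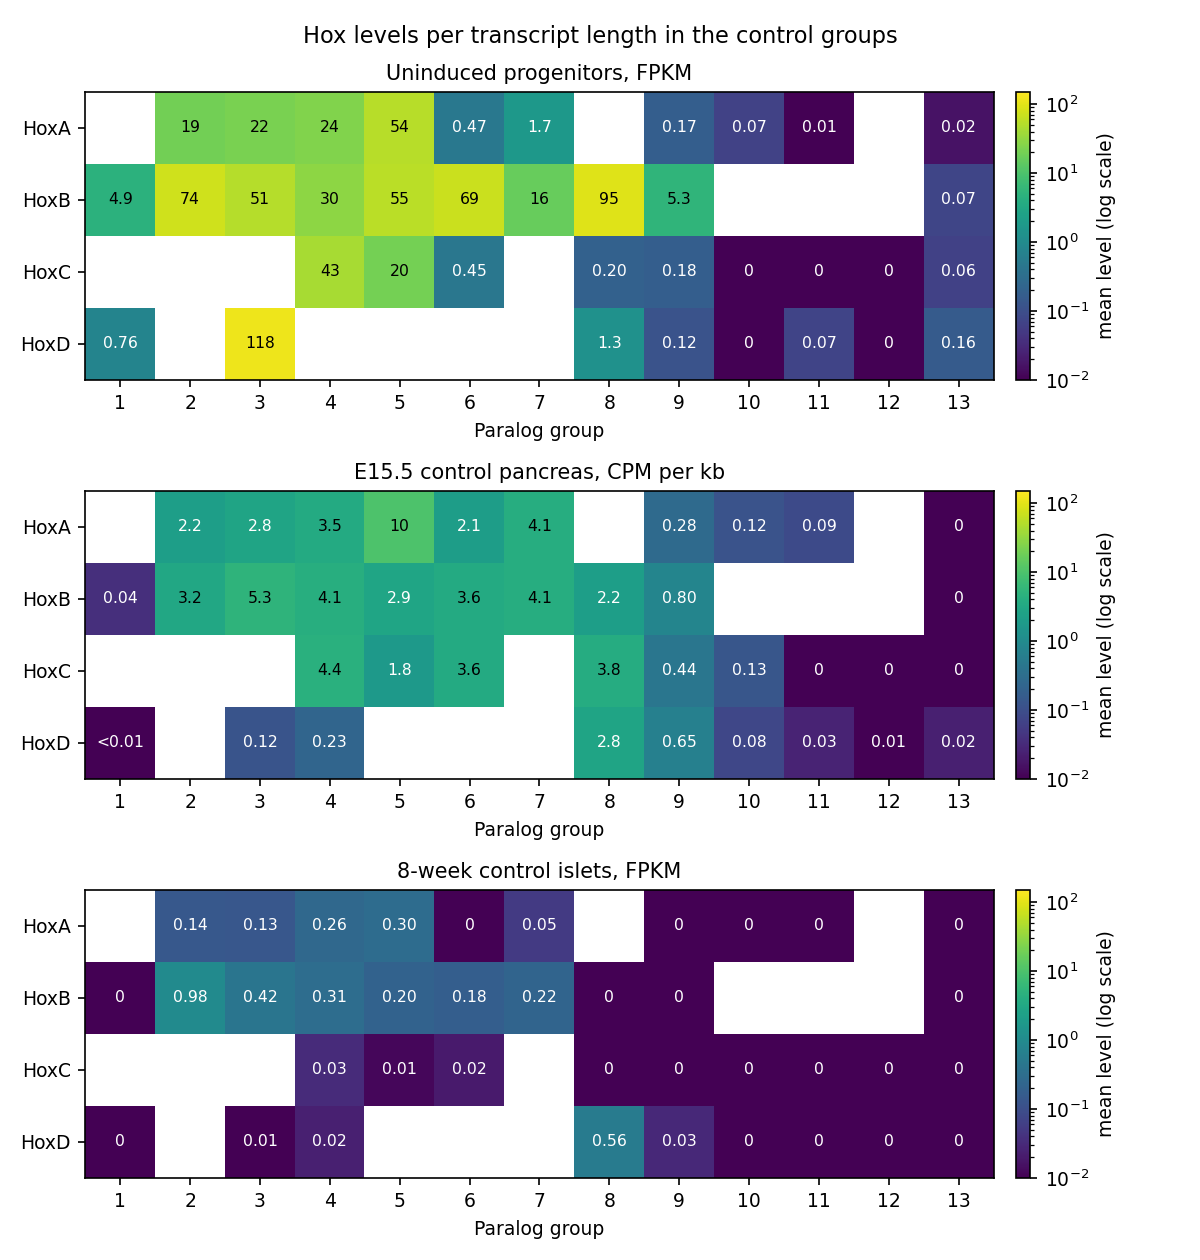
Mean Hox level in the control groups as colour on a log scale with the value printed in each cell, by cluster (rows) and paralog group (columns), for pMN (FPKM, n = 3), E15.5 control pancreas (CPM per kb of exon, n = 3) and 8-week control islets (FPKM, n = 2), with blanks where no value is shown. In pMN Hoxb8 stands at 95.0 FPKM and its neighbour Hoxb7 at 16.3, whereas HoxA drops from Hoxa5 at 54.2 to Hoxa6 at 0.466 and HoxC from Hoxc5 at 20.4 to Hoxc6 at 0.447.

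Uninduced progenitors expressed anterior and central Hox genes, and how far the expressed stretch reached differed between clusters. In HoxA the level per length was 54.2 ± 11.6 FPKM (SD, n = 3) for Hoxa5, a gene of the neck region, and 0.466 ± 0.130 for its neighbour Hoxa6. In HoxC it was 20.4 ± 5.93 FPKM for Hoxc5 and 0.447 ± 0.147 for Hoxc6. HoxB was uneven along its length and had no such step at that place: Hoxb1 stood at 4.89 ± 1.81 FPKM, Hoxb5 at 54.9 ± 16.9 and Hoxb6 at 69.2 ± 22.2. Farther 5′, Hoxb7 was lower, at 16.3 ± 2.39 FPKM, Hoxb8 was at 95.0 ± 30.4, Hoxb9 at 5.34 ± 3.22 and Hoxb13 at 0.0744 ± 0.0355. In HoxD the row named Hoxd3 stood at 118 ± 17.3 FPKM, beside Hoxd8 at 1.32 ± 0.464 and Hoxd1 at 0.762 ± 0.187. This table has no Hoxd4 row, and whether Hoxd4 reads were counted under Hoxd3 is not given in the sources used here, so every Hoxd3 value of the progenitors, its fold changes included, may hold Hoxd4 reads too. Hoxd3 is a paralog of Hoxa3 and Hoxb3, which act in the caudal hindbrain and the neck and stood at 21.8 ± 3.69 and 50.6 ± 10.7 FPKM.

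Over all 8 progenitor libraries, the highest genes per length included Hoxb8 (mean 117 ± 36.7 FPKM, SD, n = 8), Hoxd3 (96.3 ± 34.1), Hoxb6 (93.7 ± 30.2), Hoxb2 (81.2 ± 11.8), Hoxa5 (68.9 ± 16.6), Hoxb5 (68.3 ± 21.0), Hoxb3 (61.0 ± 21.0), Hoxc4 (43.6 ± 4.88) and Hoxb4 (37.6 ± 12.2). Genes next to each other in this order differ by less than the larger of their SDs, so their ranges over the libraries do not settle the order. Within libraries an order can still hold, as Hoxb3 was above Hoxc4 in every library (42.3 and 37.6 FPKM in pMN 2, for example). Genes farther apart can have ranges that do not overlap, as Hoxb8 (67.7 FPKM or more) and Hoxb4 (65.1 or less) did. Counts over exon length do not keep the FPKM order. Hoxb2 held 19.4 to 31.2 CPM on 3488 exon bases, and Hoxb4, lower by FPKM, held 138 to 328 CPM on 2566. Why the measures differ was not tested. Hoxb1, which marks a single hindbrain segment, was low and uneven, from 2.30 CPM in iSDmut 1 to 18.9 CPM in iSDmut 2. The 13 genes that were not tested in the progenitors, among them Hoxa9, Hoxd9 and every gene of groups 10 to 12, reached at most 0.528 CPM and 14 counts in any library. Groups 1 to 5 held 73.2% to 80.6% of all Hox counts in pMN, groups 6 to 8 18.3% to 25.1% and groups 9 to 13 0.618% to 1.74%. Motor neuron progenitor markers summed to 1156 to 1250 CPM in pMN and pluripotency markers to 3.13 to 11.1 CPM over all 8 libraries.

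Between untreated pMN and doxycycline-treated iNkx2.2, 2 of the 25 Hox genes tested were called. Hoxd3 (chr2:74711927-74748442) fell and Hoxb7 (chr11:96286623-96290162), a central gene of the HoxB cluster, rose. Of all 15653 genes tested in that comparison 9.49% passed the same threshold, so the share of Hox genes called was near the background. Both calls were lost without pMN 1, pMN 2, iNkx2.2 1 or iNkx2.2 2 (edgeR adjusted p 0.0518 to 0.0826 for Hoxb7 and 0.0649 to 0.140 for Hoxd3). Hoxd3 was also lost without iNkx2.2 3 (0.108) and with no filter on low counts (0.187). Hoxd3 stood at 321, 283 and 213 CPM in pMN 1, 2 and 3 and at 166, 135 and 96.1 CPM in iNkx2.2 1, 2 and 3. The highest induced library was below the lowest uninduced one. The log2 fold change was -1.04 (SE 0.261, edgeR's quasi-likelihood test, Benjamini-Hochberg adjusted p = 0.0376), and by replicate number the log2 ratios were -0.95, -1.07 and -1.15. Its paralogs Hoxa3 and Hoxb3 did not pass the test, at -0.13 (SE 0.202) and 0.04 (SE 0.264) on the log2 scale, and the difference between paralogs was not tested. Hoxb7 stood at 22.9, 19.2 and 22.6 CPM in pMN and at 34.7, 33.3 and 30.2 CPM in iNkx2.2. Its groups did not overlap either, and Hoxb7 rose by 0.60 on the log2 scale (SE 0.122, edgeR adjusted p = 0.0176). Groups that did not overlap were seen for 3 of the 25 Hox genes, against 31.4% of all genes. The third was Hoxa6, at 0.779, 0.971 and 1.10 CPM in pMN and 1.45, 1.75 and 1.77 CPM in iNkx2.2, with an adjusted p of 0.170 in edgeR's test.

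**Figure D2:**
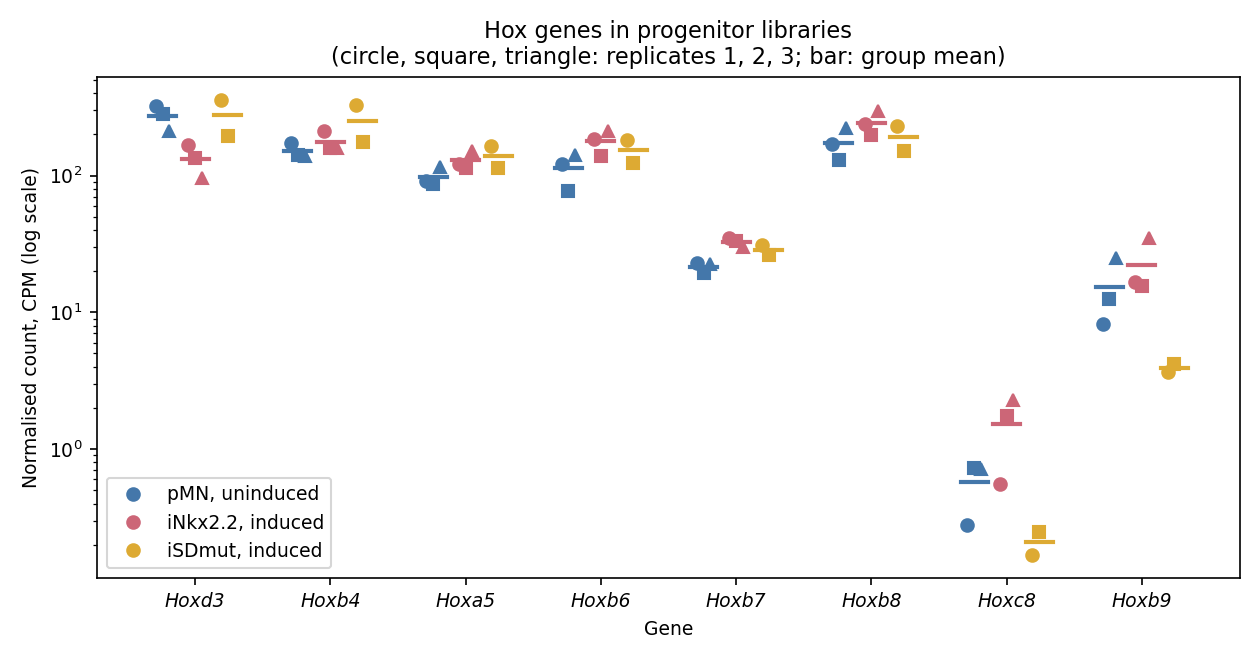
Normalised count (CPM, log axis) of 8 Hox genes in each progenitor library, with colour for the group, the point shape for the replicate number and a bar for the group mean. For Hoxd3 every iNkx2.2 point (at most 166) lies below every pMN point (at least 213), and for Hoxb9 both iSDmut points (3.64 and 4.20) lie below the rest.

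Libraries that share a number deviated together between pMN and iNkx2.2, and taking the number as a block raised the count of called Hox genes to 8, against 29.6% of all genes called in that fit. Hoxa5, Hoxb5, Hoxb6, Hoxb7, Hoxb8, Hoxb9 and Hoxc8 were then higher and Hoxd3 lower in edgeR's blocked test. The largest of these was Hoxc8, a thoracic gene, with a blocked log2 fold change of 1.36 and adjusted p of 0.0155. It stood at 0.278, 0.728 and 0.720 CPM in pMN and 0.551, 1.75 and 2.30 CPM in iNkx2.2, so the level was low in both groups. Hoxb8 followed the same order within each numbered pair, at 170, 130 and 222 CPM before and 237, 197 and 295 CPM after induction, with a blocked adjusted p of 0.00204 against 0.220 without the block. Hoxb6 stood at 121, 77.7 and 141 CPM in pMN and 185, 140 and 210 CPM in iNkx2.2 (blocked adjusted p = 0.000306 in edgeR, 0.113 without the block). Hoxd3 and Hoxb7 kept their calls under the block, at adjusted p = 0.00325 and 0.00210. The numbers also mark sequencing lanes, since numbers 1 and 2 were run in lane 2 and number 3 in lane 4. Within lane 2 alone the log2 fold change was -0.98 for Hoxd3 (edgeR adjusted p = 0.0211) and 0.71 for Hoxb7 (0.0404).

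Read by position along the clusters, the log2 fold change of iNkx2.2 over pMN was above 0 for 5 of 14 tested genes of groups 1 to 5 (median -0.05), 7 of 8 of groups 6 to 8 (median 0.54) and 3 of 3 of groups 9 to 13 (median 0.54), against 49.0% of all genes and a median over all genes of -0.01. Within the pairs of equal number, 6, 6 and 6 of the 8 genes of groups 6 to 8 were higher in the induced library. The share of Hox counts in groups 1 to 5 was 78.3%, 80.6% and 73.2% in pMN and 70.1%, 70.0% and 65.5% in iNkx2.2. Hoxd3 alone made up 133 ± 35.2 CPM of the induced total against 272 ± 55.0 CPM of the uninduced one (SD, n = 3 each). These are descriptions of neighbouring genes in common clusters, which are not independent of each other, and the difference between position classes was not tested. Markers of the cell state moved in the same libraries: those of motor neuron progenitors summed to 1235, 1156 and 1250 CPM in pMN and 778, 693 and 812 in iNkx2.2, and those of glia and neurons to 418, 205 and 354 against 942, 728 and 913. Their part in the Hox values was not tested.

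**Figure D3:**
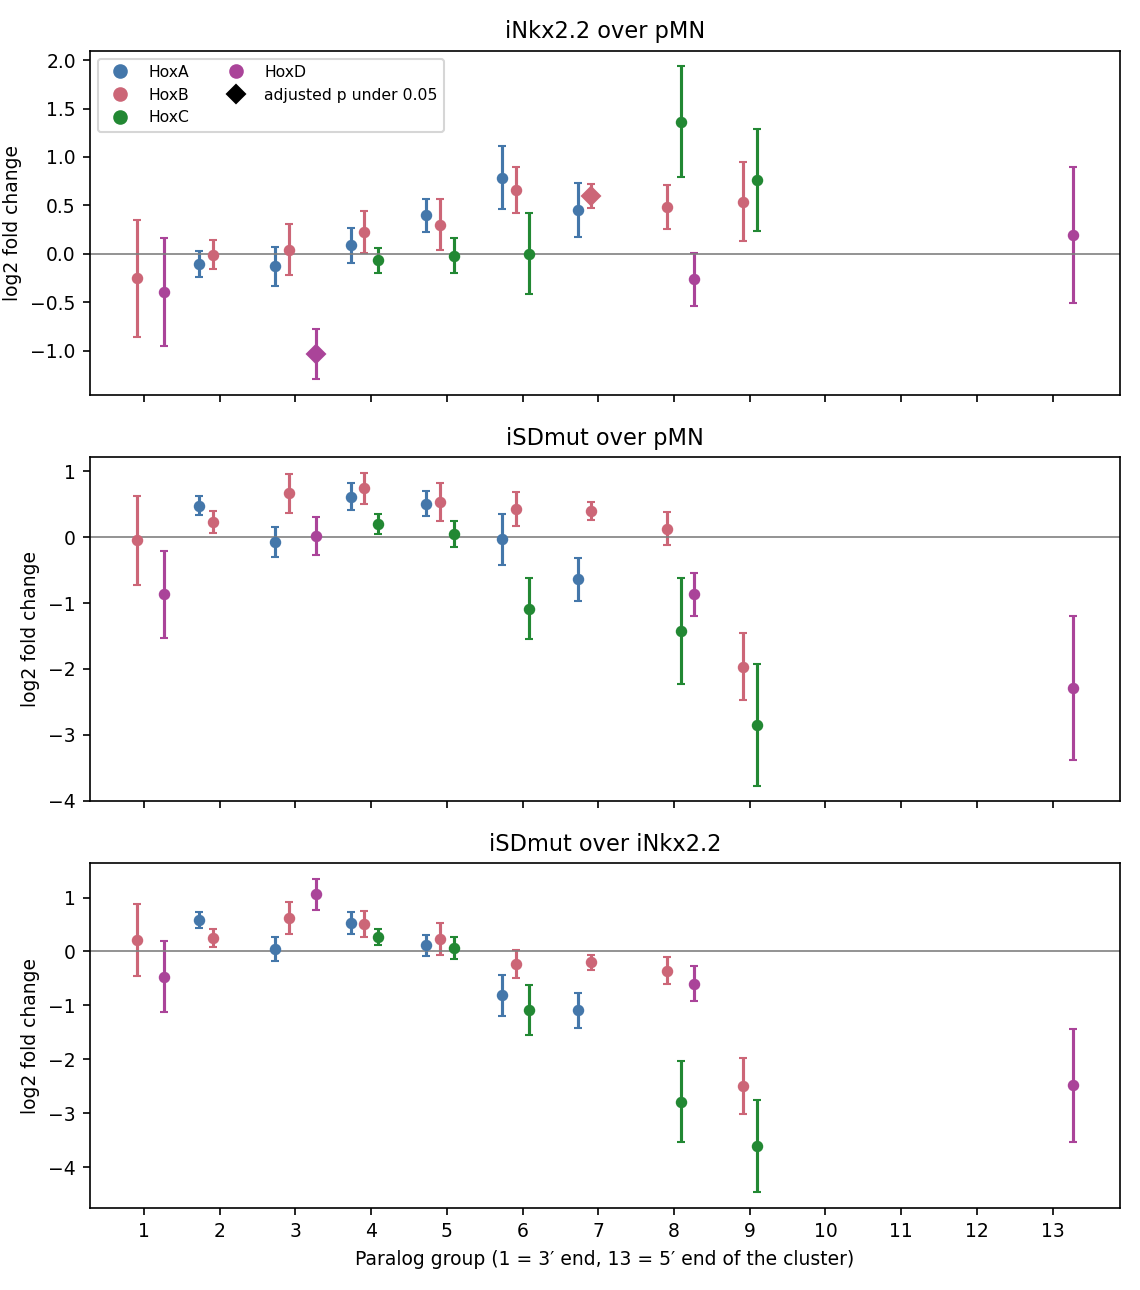
Log2 fold change of 24 of the 25 tested Hox genes (points, with bars of 1 standard error) by paralog group for the 3 progenitor comparisons, coloured by cluster and with a diamond for an adjusted p under 0.05. In iSDmut against iNkx2.2 the 11 tested genes of groups 6 to 13 all lie below 0, of which Hoxc9 and Hoxd13 rest on at most 2 counts in either iSDmut library.

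In the iSDmut line no Hox gene passed the threshold in the main test, which takes no block. With the replicate number as a block, 11 of the 25 were called against pMN and 7 against iNkx2.2. That block called 2626 and 528 of all 15653 genes and rests on no known pairing. Against pMN, 0 of 25 Hox genes were called by edgeR's test without the block (3.54% of all genes were), with 10 at an unadjusted p under 0.05 (20.2% of all genes) and 2 called by DESeq2 (Hoxb4 and Hoxb9). Against iNkx2.2, 0 of 25 were called without the block (0.281% of all genes), with 9 at an unadjusted p under 0.05 (12.5%) and 4 called by DESeq2 (Hoxa2, Hoxb9, Hoxc8 and Hoxd3). These percentages are those of edgeR's test. The share of all genes that DESeq2 called is not given here, so its Hox counts have no background beside them. The comparisons of iNkx2.2 and iSDmut with pMN share the pMN libraries, and their values for a gene are therefore given side by side only. Groups that did not overlap were seen for 11 of the 25 genes in iSDmut against pMN (36.4% of all genes) and 10 in iSDmut against iNkx2.2 (31.9%).

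Hoxd3, the anterior gene that fell with wild-type Nkx2.2, stood at 359 and 194 CPM in iSDmut 1 and 2, so that iSDmut spanned the pMN values and lay above the iNkx2.2 values of 96.1 to 166. Its log2 fold change was 0.02 (SE 0.288) for iSDmut over pMN beside -1.04 (SE 0.261) for iNkx2.2 over pMN, and 1.06 (SE 0.285, edgeR adjusted p = 0.177) for iSDmut over iNkx2.2. Leaving out iSDmut 2 gave a log2 fold change of 1.44 for iSDmut over iNkx2.2 and leaving out iSDmut 1 gave 0.55, so the size of this difference rests on which iSDmut library is used. Hoxb4, which acts at the border of hindbrain and neck, stood at 328 and 175 CPM in iSDmut, 173, 140 and 138 in pMN, and 210, 160 and 158 in iNkx2.2. The log2 fold change over pMN was 0.74 (SE 0.237), and 0.22 without iSDmut 1. Hoxa2, a gene of the second hindbrain segment, stood at 59.5 and 44.6 CPM in iSDmut, at most 39.8 in pMN and at most 37.8 in iNkx2.2. iSDmut 1 was the highest of the 8 libraries for 9 of the 25 tested Hox genes and had the highest Hox total, 2191 CPM against 1431 in iSDmut 2.

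Of the 3 tested genes of groups 9 to 13, Hoxb9, Hoxc9 and Hoxd13, each was lower in both iSDmut libraries than in every other library, and none was called in the main test. Hoxb9, a thoracic gene, stood at 3.64 and 4.20 CPM in iSDmut, 8.24, 12.6 and 25.0 in pMN, and 16.7, 15.49 and 34.8 in iNkx2.2. Both iSDmut libraries were below every other library, with log2 fold changes of -1.96 (SE 0.515, edgeR adjusted p = 0.0721) over pMN and -2.50 (SE 0.521, adjusted p = 0.0948) over iNkx2.2. Hoxc9, its HoxC paralog, stood at 0 and 0.0831 CPM in iSDmut and 0.278 to 0.943 CPM elsewhere, and Hoxc8 at 0.168 and 0.249 CPM in iSDmut and 0.278 to 2.30 CPM elsewhere. At these levels the floor of 3 counts equals 0.168 CPM in iSDmut 1 and 0.125 CPM in iSDmut 2, so the fold changes of Hoxc9 and Hoxd13, with at most 2 counts in either iSDmut library, have no usable size. By position, iSDmut over iNkx2.2 was above 0 for 13 of 14 genes of groups 1 to 5 (median 0.24), 0 of 8 of groups 6 to 8 (median -0.71) and 0 of 3 of groups 9 to 13, against 52.2% of all genes. Taken singly over the mean of iNkx2.2, iSDmut 1 was lower for 7 of the 8 genes of groups 6 to 8 and iSDmut 2 for 8 of 8, and both were lower for 3 of 3 genes of groups 9 to 13. Groups 9 to 13 held 0.194% and 0.325% of Hox counts in iSDmut, against 0.618% to 1.74% in pMN and 1.12% to 2.26% in iNkx2.2. iSDmut 1 shared lane 2 with pMN and iNkx2.2 1 and 2, and iSDmut 2 was alone in lane 3. Against the lane 2 pMN mean, iSDmut 1 had a log2 ratio of -1.51 for Hoxb9, 0.25 for Hoxd3 and 1.07 for Hoxb4. Mesenchyme markers differed between the iSDmut libraries, at 16.0 and 65.3 CPM beside 45.5 to 59.2 in pMN and 70.2 to 103 in iNkx2.2. Markers of glia and neurons summed to 760 and 787 CPM in iSDmut (205 to 418 in pMN), those of motor neuron progenitors to 1004 and 686 CPM (1156 to 1250 in pMN), and those of p3 progenitors and floor plate to 44.4 and 71.2 CPM (127 to 161 in pMN). The part of these lists in the Hox values was not tested.

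Genes that act with or upstream of Hox genes were called in both induced lines. Of the 9 Hox cofactors, 4 fell and 0 rose in iNkx2.2 (median log2 fold change over the list -0.37, 9.49% of all genes called), among them Pbx3 from 65.9 ± 2.14 to 25.5 ± 1.35 CPM (SD, n = 3 each), Meis2 by 0.43 and Pknox2 by 0.48 on the log2 scale. In iSDmut 1 of 9 fell over pMN (3.54% of all genes called), Pknox2, by 0.68 on the log2 scale. Pbx3 was the 1 cofactor called between the induced lines, at 1.26 on the log2 scale in iSDmut over iNkx2.2 (edgeR adjusted p = 0.0304). Of 17 genes of retinoic acid synthesis, breakdown, binding and reception, 5 fell and 0 rose in iNkx2.2 against the same 9.49% of all genes, among them the receptor Rxra (-0.80), the binding proteins Crabp1 (-1.10) and Crabp2 (-0.79) and the receptor Rarb (-0.48). In iSDmut over pMN, against 3.54% of all genes, 3 of the 17 fell, Aldh1a1, Rxra (-0.71) and the retinoic acid hydroxylase Cyp26a1 (-2.17), and the synthesising enzyme Aldh1a2 rose, from 1.24 ± 0.237 CPM (SD, n = 3) to 5.06 ± 3.36 CPM (SD, n = 2). Rarb was the 1 gene of the 17 called between the induced lines, at 0.85 in iSDmut over iNkx2.2. Whether either list differs between the lines was tested only gene by gene.

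Of the 17 chromatin regulators of the clusters (Polycomb and Trithorax genes), 0 were called by edgeR in any progenitor comparison, with 2, 2 and 3 at an unadjusted p under 0.05. These are iNkx2.2 over pMN, iSDmut over pMN and iSDmut over iNkx2.2, where 9.49%, 3.54% and 0.281% of all genes were called. The unadjusted p was under 0.05 for 25.3%, 20.2% and 12.5% of all genes. The counts of the following lists stand against 9.49% of all genes called in iNkx2.2 and 3.54% in iSDmut over pMN. Of 5 tested genes of more rostral brain, 1 was called in iNkx2.2 and 0 in iSDmut over pMN. En1 rose in iNkx2.2, from 0.108 ± 0.106 to 1.03 ± 0.281 CPM (SD, n = 3 each). Of 6 genes that Hox factors control in motor neurons, 2 rose in iNkx2.2, among them Pou3f1 to 10.6 ± 3.12 CPM (SD, n = 3) with a log2 fold change of 2.93. In iSDmut over pMN 2 of the 6 rose as well, Pou3f1 by 2.65 on the log2 scale. Of 8 tested genes that flank the clusters, 1 was called in iNkx2.2 and 1 in iSDmut over pMN, in both Smug1 beside HoxC, at 0.53 and 0.65.

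The embryonic pancreas expressed anterior and central Hox genes of all 4 clusters at low levels. The highest level per length was that of Hoxa5, at 10.6 ± 2.90 CPM per kb (SD, n = 7). Hoxb3 followed at 5.64 ± 1.79, Hoxc4 at 4.19 ± 2.04, Hoxb4 at 4.14 ± 1.52 and Hoxa4 at 3.99 ± 1.65. Hoxb6, Hoxb7, Hoxb2, Hoxb5 and Hoxa3 completed the first 10, between 3.58 ± 0.840 and 2.73 ± 0.876, and after Hoxa5 the neighbours in this order differ by less than the larger of their SDs. Hoxd3, among the highest genes of the progenitors, ranged from 0.147 to 1.37 CPM here. The embryonic pancreas has separate values for Hoxd4, 0.207 to 1.23 CPM, whereas the progenitors have none. How reads shared by these genes were counted is not given in the sources used here. The Hoxd3 levels of the tissues can therefore not be set against each other. The 13 genes not tested, which include Hoxb1, Hoxd1 and the remaining genes of groups 10 to 13 apart from Hoxa10, reached at most 0.740 CPM and 30 counts in a library.

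No Hox gene was called between SDmut and control pancreas. Of 26 tested, 0 passed in edgeR's test (0.00534% of all 18723 genes did, a single gene), the unadjusted p was under 0.05 for 1 (2.54% of all genes), 0 were called by DESeq2, and 0 had groups that did not overlap (3.58% of all genes). Hoxa5 stood at 15.1, 19.8 and 22.9 CPM in controls 1 to 3 and 20.8, 30.0, 14.9 and 15.6 CPM in SDmut 1 to 4. Its log2 fold change was 0.07 (SE 0.273). Hoxb3 gave 15.9, 24.7 and 26.6 CPM in controls against 28.7, 36.8, 15.6 and 19.6 CPM in SDmut, with a log2 fold change of 0.17 (SE 0.318). In both genes the spread within a group was larger than the difference between groups. Hoxc8 was the gene under the unadjusted threshold: 0, 7.58 and 24.8 CPM in controls and 0.103, 1.44, 0 and 0.343 CPM in SDmut. A control library at 0 lies below 3 of the SDmut libraries, and the difference of -4.49 on the log2 scale (SE 1.89, edgeR adjusted p = 1.00) became -2.99 without control 3. In the authors' deposited table for this tissue, 31 Hox genes are listed, and the smallest p among them is 0.0598, for Hoxc8.

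Hox levels differed between pancreas libraries of the same genotype, and so did the marker lists. Control 2 and 3 and SDmut 1 and 2 held 176, 263, 165 and 245 CPM of Hox transcripts, and the remaining control 1 and SDmut 3 and 4 held 114, 105 and 115 CPM. In the same order, the 9 mesenchyme markers summed to 12515, 15232, 10144 and 15331 CPM, against 6517, 5531 and 6851 CPM in the last 3 libraries, with no marker at 0. The endothelium, blood and kidney lists divided the libraries the same way. They summed to 488 to 612 against 367 to 422 CPM, 50.7 to 108 against 28.9 to 34.4 CPM and 126 to 191 against 65.7 to 75.8 CPM. The acinar markers summed to 10434 to 21917 CPM in the first set and 25948 to 33315 CPM in the second. Duct, p3 and floor plate, and motor neuron lists were also lower in the first set, and the remaining lists overlapped. For posterior and central HoxA and HoxC genes the spread was wider still, as Hoxa7 ranged from 0.775 to 31.4 CPM and Hoxc6 from 0.387 to 20.3 CPM, both highest in control 3. Skeletal muscle markers summed to 4976 CPM in control 3 and 5716 CPM in SDmut 2, beside 11.4 to 68.0 CPM in the rest. Groups 6 to 8 made up 43.9% of Hox counts in control 3 and 18.0% in SDmut 2, against 18.9% to 22.3% in the other 5 libraries. Of the 26 tested genes, SDmut 2 was the highest library for 11 and control 3 for 8. Without both libraries the Hoxc8 log2 fold change was -4.66. What part of the Hox counts comes from mesenchyme, muscle or any other cells was not tested.

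**Figure D4:**
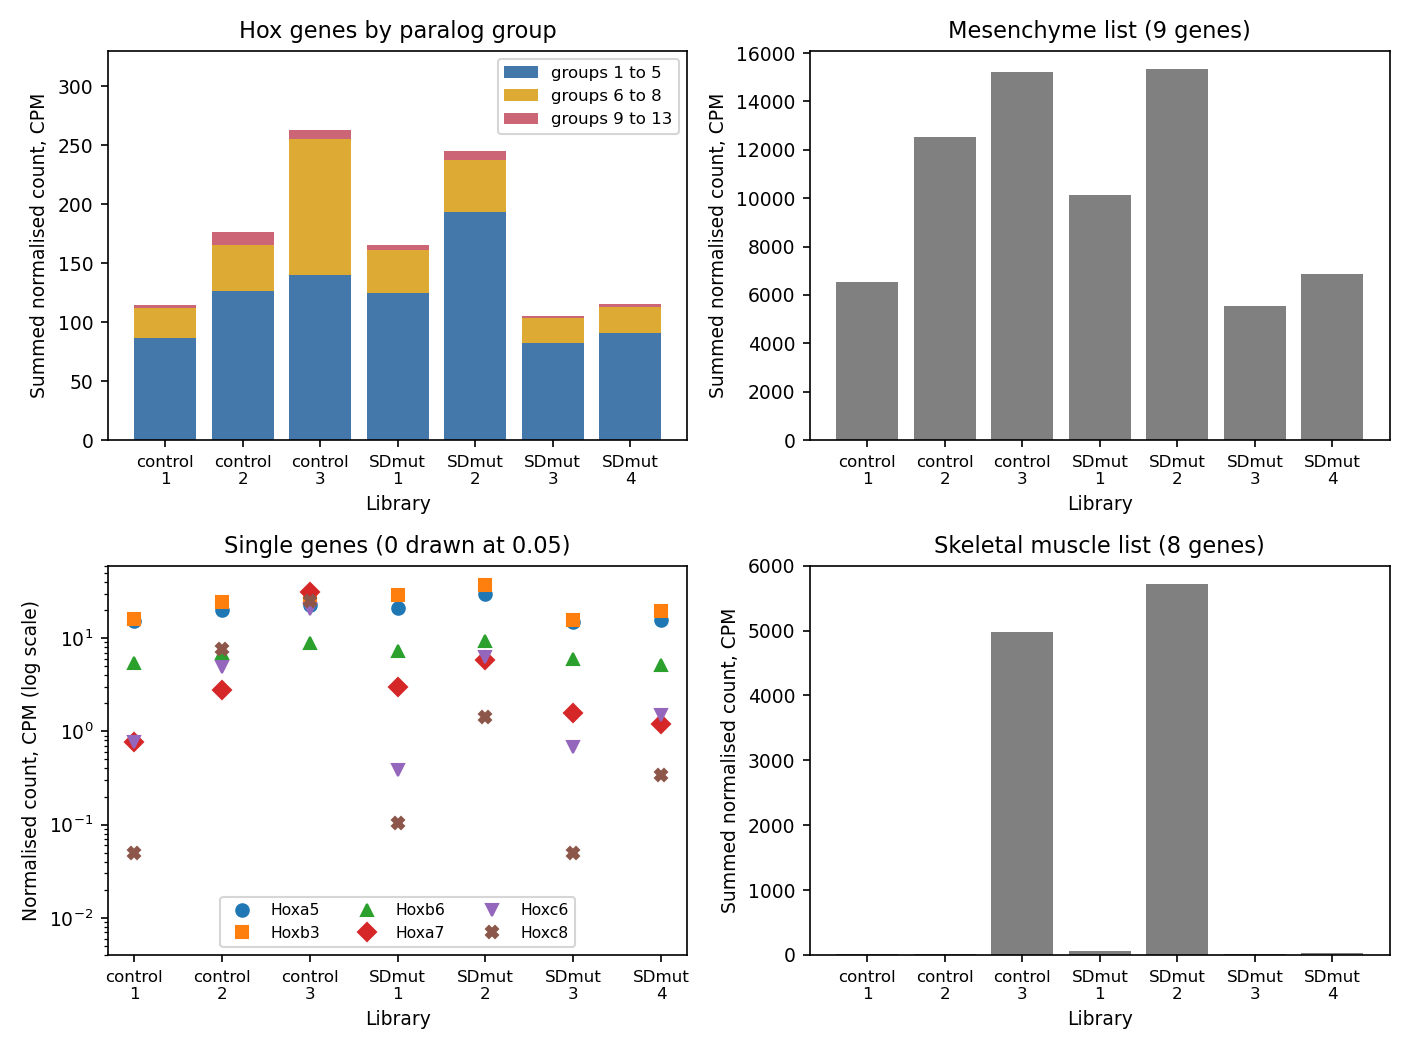
By library of the E15.5 pancreas, bars of summed normalised count (CPM, from 0) for Hox genes split by paralog group, for the 9 mesenchyme markers and for the 8 skeletal muscle markers, and points (CPM, log axis, with 0 drawn at 0.05) for 6 single Hox genes. Hox totals are 165 or more in the 4 libraries with 10144 CPM or more of mesenchyme markers and 115 or less in the other 3. The same 4 libraries are also higher in the endothelium, blood and kidney lists, which are not drawn.

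By position, SDmut over control was above 0 for 8 of 13 genes of groups 1 to 5 (median log2 fold change 0.04), 1 of 8 of groups 6 to 8 (-0.56) and 0 of 5 of groups 9 to 13 (-0.56), against 52.4% of all genes. Control 3, with its high Hoxa7, Hoxc6 and Hoxc8, is 1 of the 3 controls behind these values. Of 9 cofactors, 16 tested retinoic acid genes and 17 chromatin regulators, 0 were called by edgeR, with 1, 0 and 2 at an unadjusted p under 0.05. Of all genes, 0.00534% were called and 2.54% had an unadjusted p under 0.05.

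Islets held Hox transcripts close to the limit of counting. All Hox genes together gave 80 to 345 counts per library, 26 of 39 genes stayed under 10 counts in every library, and 6 were tested in each islet comparison. Per length, the first 10 were Hoxb2 at 0.735 ± 0.417 FPKM (SD, n = 9), Hoxd8 at 0.684 ± 0.281, Hoxa5, Hoxa4, Hoxb3, Hoxb5, Hoxb4, Hoxb7, Hoxa2 and Hoxa3, the last 8 between 0.348 ± 0.138 and 0.217 ± 0.0695. These are anterior and central genes, as in the embryonic pancreas, and apart from the step from Hoxd8 to Hoxa5 the neighbours in the order differ by less than the larger of their SDs. Groups 9 to 13 held 0.813% to 4.96% of Hox counts in 7 of the 9 libraries and 15.7% and 19.7% in 4-week control 1 and betaKO 1. At 345 and 127 Hox counts these shares rest on few reads.

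No Hox gene was called in the islets of either mutant. In betaSDmut 0 of 6 passed edgeR's test (7.94% of all genes did), DESeq2 called 0, and the unadjusted p was under 0.05 for 2 (25.7% of all genes). In the libraries labelled betaKO 0 of 6 passed edgeR's test (1.56% of all genes), DESeq2 called 0, and the unadjusted p was under 0.05 for 1 (15.2%). Nearest to a call was Hoxb3 in betaSDmut and Hoxb2 in the libraries labelled betaKO. Both are HoxB genes, as were many of the genes tested. Those were Hoxb2, Hoxb3, Hoxb4 and Hoxb5 for betaSDmut, and Hoxb2, Hoxb3 and Hoxb5 for betaKO. Hoxb2, a gene of the hindbrain, stood at 1.34 and 1.04 CPM in 8-week controls and 0.874, 0.496 and 0.471 CPM in betaSDmut (-0.96 on the log2 scale, SE 0.390, edgeR adjusted p = 0.194). It stood at 1.49 and 1.13 CPM in 4-week controls and 0.414 and 0.390 CPM in the libraries labelled betaKO (-1.70 on the log2 scale, SE 0.479, edgeR adjusted p = 0.189). Mutant and control values did not overlap in either pair, which was also true of 45.7% of all genes for betaSDmut and 47.5% for betaKO. Hoxb3 stood at 1.19 and 0.910 CPM in 8-week controls and 0.416, 0.372 and 0.616 CPM in betaSDmut (log2 fold change -1.15, SE 0.372, adjusted p = 0.121), and at 1.25 and 0.895 against 0.947 and 0.937 CPM in the 4-week pair (-0.20, SE 0.439).

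The difference between the 2 mutant effects, each taken against controls of its own age, did not pass the test for either gene. The betaSDmut islets were from 8 weeks and those labelled betaKO from 4 weeks, with another protocol. Allele, age and protocol can therefore not be told apart in this difference. The difference of the effects was 0.75 for Hoxb2 (edgeR adjusted p = 0.658) and -0.95 for Hoxb3 (adjusted p = 0.503), and 0 of 8 Hox genes tested for it passed (1.21% of all genes), with 0 at an unadjusted p under 0.05 (13.7%) and 0 by DESeq2. Mesenchyme markers summed to 234 and 294 CPM in 8-week controls and 126 to 187 CPM in betaSDmut, but to 254 and 229 CPM in 4-week controls and 390 and 469 CPM in the libraries labelled betaKO, where Col1a1 and Col3a1 rose. Acinar markers ranged from 254 to 11833 CPM over the 9 islet libraries. The part of these cells in the Hox values was not tested. Among the genes around the Hox code, betaSDmut islets had 4 of 11 tested retinoic acid genes called, against 7.94% of all genes. The synthesising enzyme Aldh1a3 rose from 1.13 ± 0.623 CPM (SD, n = 2) to 19.8 ± 6.04 CPM (SD, n = 3), Crabp1 stood at 0.0217 ± 0.0306 and 0.547 ± 0.188 CPM, and Rara and Rxra fell by 1.18 and 0.39 on the log2 scale. The control level of Crabp1 lies below the floor of 3 counts (0.143 and 0.130 CPM in 8-week controls 1 and 2), so the size of its rise is not usable. Of 9 cofactors 1 was called, Meis1, which fell by 0.45, and of 17 chromatin regulators 1, the Polycomb gene Cbx7, which fell by 0.39. Single genes of lists this short are no excess over the 7.94% of all genes called. In the libraries labelled betaKO 0 genes of these lists were called, with 2 cofactors, 2 retinoic acid genes and 0 chromatin regulators at an unadjusted p under 0.05. Of all genes, 1.56% were called there and 15.2% had an unadjusted p under 0.05.

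**Figure D5:**
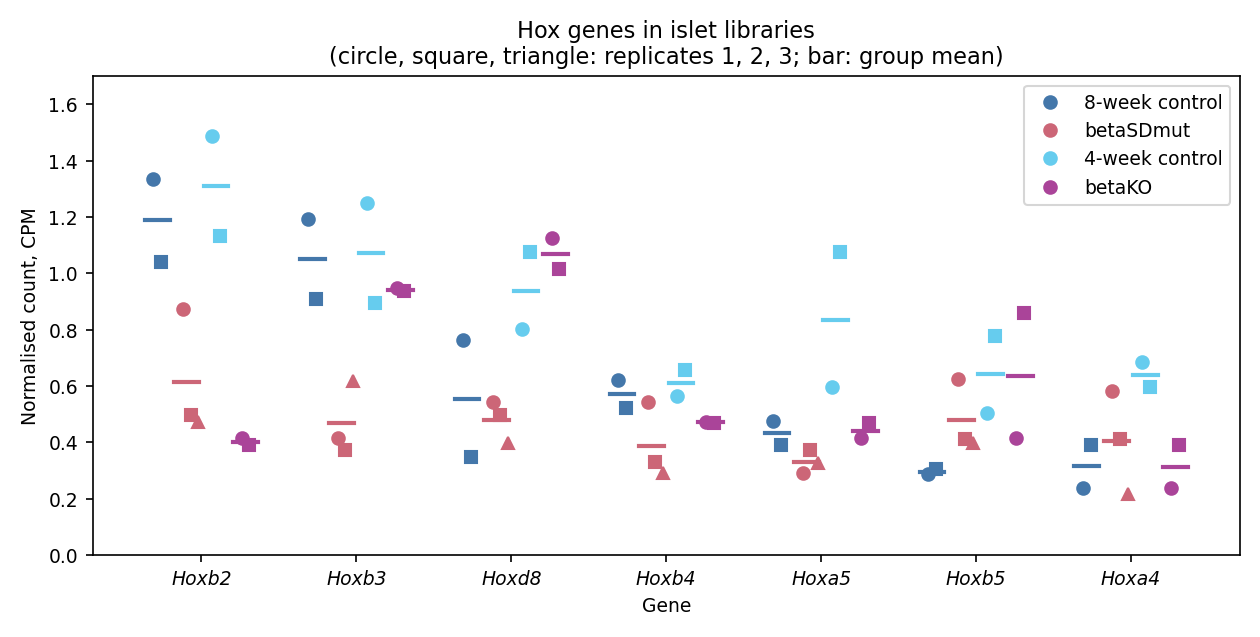
Normalised count (CPM, axis from 0) of 7 Hox genes in each islet library, with colour for the group, the point shape for the replicate number and a bar for the group mean. Hoxb2 is at 0.874 or less in the mutant libraries and at 1.04 or more in the control libraries of both ages.

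Nkx2.2 sites of the MIN6 beta-cell line lay outside the Hox clusters. Within 10 kb of the 4 clusters, a span of 0.572 Mb, 0 of the authors' 6473 final sites and 0 of their 10749 events were found, while the genome average was 2.37 final sites per Mb. Within 100 kb, a span of 1.292 Mb, there was 1 final site, 88.5 kb from HoxB, with 82 and 70 reads in the replicates and log2 CPM of 6.72 and 6.89 beside a median over sites of 6.82 in each. The nearest final sites to the other clusters were 473.7 kb from HoxA, 447.7 kb from HoxC, in an intron of Pcbp2, and 217.1 kb from HoxD. At the genome average little more than a single site would fall in the 10 kb windows, so the count of 0 describes these windows and sets them apart from no others. The authors' deposited table of islet genes joined to a site lists 0 Hox genes. Binding was mapped in beta cells, where Hox transcripts are scarce in islets, and no binding map of the progenitors was used here. In the authors' deposited table for the progenitors 2 Hox genes are listed: Hoxd3, with a log2 fold change of -1.02 and p of 0.00408 for wild-type Nkx2.2 over pMN, and Hoxb7, with 0.64 and p of 0.000492, and both are called there.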

How the data were processed

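RNA-seq covered 24 libraries and ChIP-seq 3. The authors deposited raw read counts per gene, as their description file says. STAR, Cufflinks and mm10 are named in the submitters' processing notes, with no role given. FPKM for islets and progenitors were computed by the authors. Deposited log2 fold changes, p-values and calls (coded as a score of -1, 0 or 1) came from the authors' DESeq2 (E15.5) or edgeR 3.20.9 and limma 3.34.9 analyses, and log2 CPM at ChIP sites were also deposited by the authors.

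The main test was the robust quasi-likelihood test of edgeR 4.0.16 (R 4.3.3) after TMM scaling and filterByExpr, over all genes, with Benjamini-Hochberg adjustment at 0.05. Fits held the 7 embryonic libraries, the islet libraries of 1 age (all 9 for the difference of islet effects), and the 8 progenitor libraries in 1 model of 3 groups. Standard errors are the absolute log2 fold change over the square root of the F statistic. CPM use TMM-scaled totals. The procedure was tested on simulated data. Same-numbered pMN and iNkx2.2 libraries deviated together (r = 0.561, 0.548 and 0.584 for numbers 1, 2 and 3), so the number was also taken as a block. Alternatives were RLE factors, no count filter, DESeq2 1.42.0, each library left out, the block, the number in the embryonic titles as a block, lane 2 only, fits of 2 groups only, all ChIP events and a wider window.

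The named genes were every called Hox gene, the 10 highest per length in each tissue, those at 0 throughout, Nkx2-2, and up to 4 called members of each list; some of these are not reported here. Other Hox genes were named after their values were seen. The members and the gene lists were chosen with earlier results of these data known. Promoters and their 250 bases came from RefSeq (GRCm38.p6), and genes without an entry were left out. GEO gives genomic DNA as the molecule of the 4-week islets, whose columns nevertheless hold RNA counts per gene.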

Additional observations from a re-analysis of the deposited data

Results flagged for a closer look

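In the 4 SDmut pancreas libraries, 3 of the 26 tested Hox genes had 1 library far from the other 3, where the gap to the nearest library, over the whole range, passed Dixon's critical value. All were highest in SDmut 2. Hoxa6 stood at 2.51 CPM there against 0.697 CPM in the next library, Hoxa9 at 1.63 against 0.237 CPM, and Hoxc9 at 0.852 against 0.158 CPM. Chance flags about 1 in 20 groups. SDmut 2 also held 5716 CPM of skeletal muscle markers and 15331 CPM of mesenchyme markers, and their part in these values was not tested.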

How the results depend on the processing

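The counts of called Hox genes stayed at 0 in the E15.5 comparison, both islet comparisons and the difference of islet effects under every alternative that was run. For iNkx2.2 against pMN (2 called) the count was 1 with no count filter (Hoxb7), and 0 to 2 when leaving out single libraries. Without pMN 1, pMN 2, iNkx2.2 1 or iNkx2.2 2 neither gene was called, and without iNkx2.2 3 Hoxd3 was lost. The adjusted p was then 0.0518 to 0.0826 for Hoxb7 and 0.0649 to 0.140 for Hoxd3, and it was 0.187 for Hoxd3 with no count filter. With the replicate block the counts were 8, and 11 for iSDmut against pMN and 7 for iSDmut against iNkx2.2. The islet libraries share only a number with the others (r = -0.0839 and -0.126 for betaSDmut, -0.039 and -0.039 for betaKO). For iSDmut 1 and 2, r with the same number was 0.376 and 0.054 in pMN and 0.334 and 0.108 in iNkx2.2. iSDmut 1 had negative r with numbers 2 and 3, but iSDmut 2 had a higher r with number 3 (0.281 in pMN, 0.187 in iNkx2.2). With 2 iSDmut libraries these r are not independent, and the labels state no pairing. The islet and iSDmut blocks therefore rest on no known pairing. In the 2 iSDmut comparisons they called 2626 and 528 of all genes. DESeq2 called 2 Hox genes for iSDmut against pMN and 4 against iNkx2.2, where it gave no adjusted p for 2 single values. Its share of all genes called is not given here. Leaving out single libraries gave 0 to 1 and 0 to 3, the highest without iSDmut 2 (Hoxb4, and Hoxa2, Hoxb4 and Hoxd3). Sites near the clusters were 1 with the 100 kb window. The cause of these moves was not tested.

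Of 366 single-gene values under alternatives, 331 kept direction and side of the threshold, 10 lost and 25 gained a call, and 0 reversed. Genes called over the whole table ranged from 0 to 28 at E15.5, 37 to 2765 in betaSDmut, 4 to 798 in betaKO, 0 to 663 for the difference, 412 to 4629 in iNkx2.2 against pMN, 171 to 2626 in iSDmut against pMN and 1 to 528 against iNkx2.2. In islets 0 Hox genes had 10 counts in every library, at library totals that overlap those of the progenitors. Read counts cover counting error only.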
